A study of Prunus sibirica with 6 samples.

Results

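A set of 7 clusters of assembled transcripts that carry the names of 5 tapetum regulators, MALE STERILITY 1 (MS1), bHLH10, ABORTED MICROSPORES (AMS), MYB35 and MYB80, were compared between male sterile and male fertile flower buds of Siberian apricot, Prunus sibirica, each from 1 clone. The 7 clusters were taken by identifier, and each had 1 of these proteins as its best Swiss-Prot match, among 1508 clusters listed as transcription factors or other transcriptional regulators. RNA-seq libraries were made from 3 bud samples of the sterile clone, No. 1, and 3 of the fertile clone, No. 60. All 6 were labelled as the microspore developmental stage, and no treatment, transgene or age was given. Each group is 1 clone, so male sterility cannot be told apart from any other genetic difference between the clones, and p-values measure the spread between bud samples only.

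The tapetum is the innermost wall layer of the anther, which feeds the developing microspores, supplies the material of the pollen wall and then breaks down. In Arabidopsis its regulators form a chain. The bHLH factor DYT1, with partners that include bHLH10, acts upstream of MYB35 (TDF1), which acts upstream of AMS, then MYB80 and, last, MS1, and loss of MYB35, AMS, MYB80 or MS1 makes Arabidopsis plants male sterile.

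Estimated counts in the regulator table summed to 957196 to 1122298 in sterile and 1242099 to 1424835 in fertile libraries, and the counts, lengths and FPKM (a level per length and per library total) implied whole libraries of 16.2 to 19.0 M fragments in the sterile and 22.1 to 25.3 M in the fertile clone. Every pair of libraries differed beyond sampling noise, and fertile replicate 1 stood apart from the other fertile libraries, with a chi-square per degree of freedom of 11.5 and 12.3, against 1.57 to 1.77 for every other pair within a clone. The buds carried floral RNA: the 8 floral organ identity clusters, among them AGAMOUS- and SEPALLATA-type genes and, by its name only, a STERILE APETALA cluster at 0.34 to 1.36 FPKM in sterile and 0.20 to 0.58 FPKM in fertile libraries, summed to 396 to 411 FPKM in sterile and 368 to 383 FPKM in fertile libraries.

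MS1 was near absent from fertile buds and present at a low level in all 3 sterile libraries, bHLH10 was 4.91-fold higher in the sterile clone, and the AMS and MYB35 clusters with enough counts to test differed by at most 1.6-fold, in both directions. Of the 7 clusters 5 passed the low-count filter. By edgeR's quasi-likelihood test at an adjusted p of 0.05, 3 of these were higher in sterile buds and 2 lower, where 57.0% of all 1380 tested regulators were called, 28.0% higher and 28.9% lower. MS1 passed the filter only through its sterile counts, so its call was bound to follow and adds nothing to the counts themselves. The MYB80 cluster and the second MYB35 cluster were not tested. All 7 clusters had FPKM ranges that did not overlap between the clones, as had 65.1% of all 1508 regulator clusters.

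**Figure D1:**
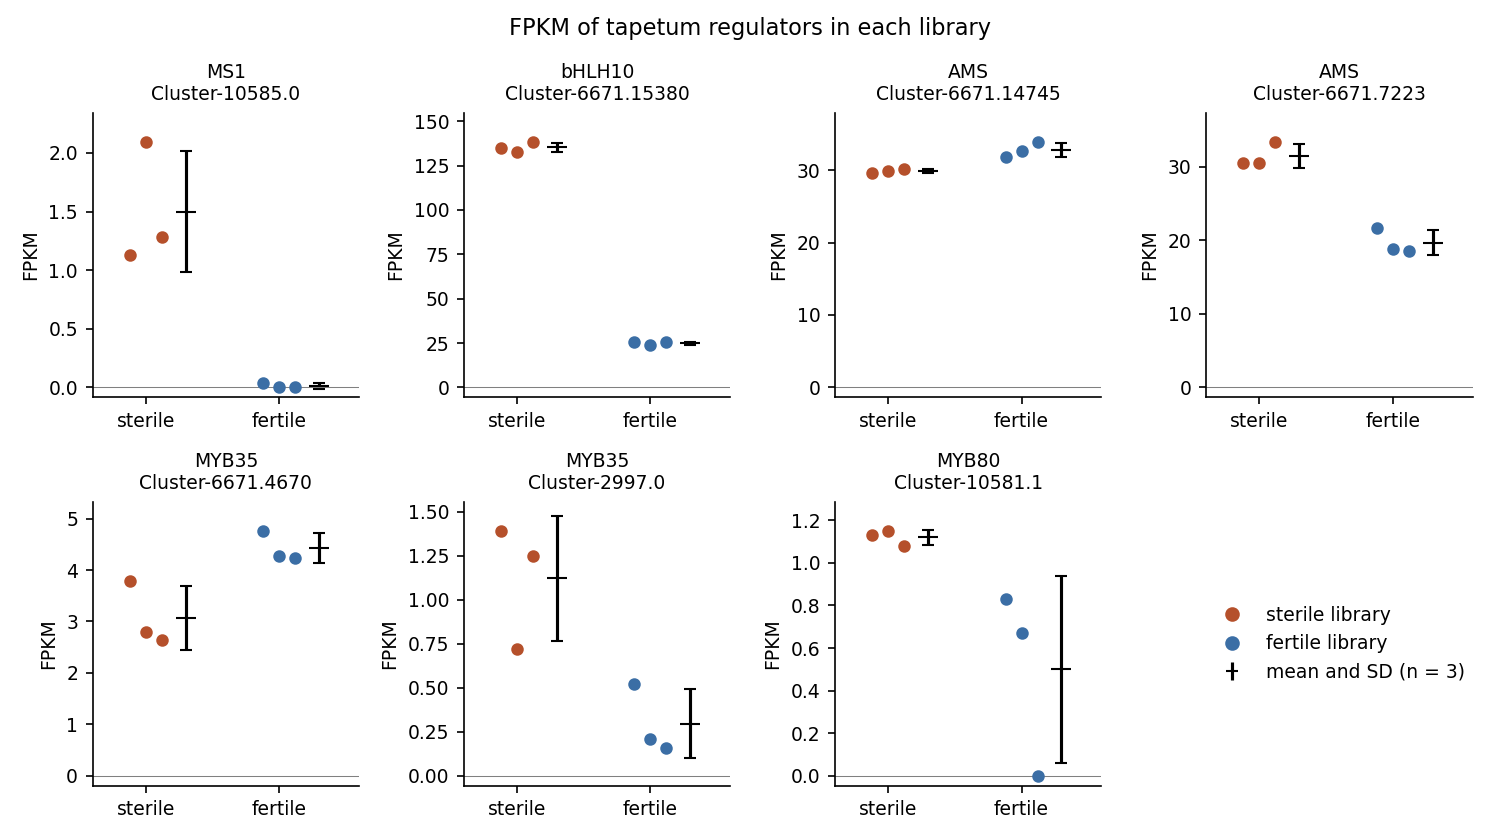
FPKM of the 7 clusters in each library, sterile left and fertile right, with the mean and SD beside the points (n = 3 each). The bHLH10 panel shows the widest gap among abundant members (132.81 to 138.07 against 23.87 to 25.45 FPKM), and MS1 is at or near 0 in all 3 fertile libraries.

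MS1 (Cluster-10585.0, 2421 bases) encodes a PHD-finger regulator of late tapetum and pollen wall genes. Its RNA stood at 1.13, 2.09 and 1.28 FPKM in sterile replicates 1, 2 and 3, against 0.04, 0.00 and 0.00 FPKM in fertile replicates 1, 2 and 3. The counts behind these values were 39, 79 and 52 in sterile libraries, against 2, 0 and 0 in fertile libraries. Every sterile library therefore held MS1 reads, and only fertile replicate 1 among the fertile ones did. The ratio of summed counts, scaled by library, was 104 with a 95% exact binomial interval of 28.5 to 870, which covers counting error only. Fertile replicate 1 held the only 2 fertile reads. With it left out, taking 3 counts over the other 2 fertile libraries as the floor, the ratio would be 46.9. That value is not a lower bound for the clones, since the interval over all libraries goes down to 28.5. The fitted log2 fold change was 6.44 ± 0.58 (SE; edgeR adjusted p = 4.43e-08). It is given as a description only, since MS1 was tested because of its sterile counts, and the ratio of counts is the measure of its difference. Even in sterile buds MS1 was scarce, with 51.2% to 61.9% of the 34377 clusters in the FPKM table at or above its level there. It was the least abundant of the 24 tested clusters that the authors' table places in the PHD family, in every library of both clones. MALE MEIOCYTE DEATH 1, a PHD-finger protein by name but outside those 24, was lower than MS1 in sterile libraries, at 1.03, 0.99 and 1.11 FPKM. The sterile libraries also varied among themselves, with a coefficient of variation of 34.4% where counting alone gives 13.3%.

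bHLH10 (Cluster-6671.15380, 2118 bases), which in Arabidopsis pairs with DYT1 and acts redundantly with its close relatives bHLH89 and bHLH91, was the most abundant member in sterile buds. It stood at 134.89, 132.81 and 138.07 FPKM in sterile replicates 1 to 3, against 25.29, 23.87 and 25.45 FPKM in fertile replicates 1 to 3. The libraries of each clone lay within a narrow band, with a coefficient of variation of 1.96% in sterile and 3.50% in fertile buds, close to the 1.51% and 3.02% that counting gives. The log2 fold change was 2.30 ± 0.07 (edgeR adjusted p = 8.78e-15), the second highest of 62 tested bHLH clusters, of which 30.6% were called higher and 29.0% lower. In every sterile library bHLH10 ranked 1 among the 71 bHLH clusters by FPKM, and in fertile libraries it ranked 10 or 11. Against the whole FPKM table, between 1.76% and 1.88% of clusters were at or above it in sterile libraries, and 12.8% to 13.7% in fertile libraries.

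A pair of clusters carried the name AMS, a bHLH factor that drives sporopollenin and other pollen wall genes in the tapetum, and they went opposite ways. Cluster-6671.7223 stood at 30.45, 30.51 and 33.30 FPKM in sterile replicates 1 to 3, against 21.68, 18.87 and 18.48 FPKM in fertile replicates 1 to 3. Cluster-6671.14745 stood at 29.57, 29.83 and 30.10 FPKM in sterile replicates 1 to 3, against 31.80, 32.69 and 33.84 FPKM in fertile replicates 1 to 3. The first cluster was thus higher in every sterile library and the other slightly lower. Their log2 fold changes were 0.52 ± 0.08 (edgeR adjusted p = 4.11e-05) and -0.28 ± 0.06 (adjusted p = 0.000839). The lower value rests on the library scale. With the implied whole-library totals, which shift the median of all tested regulators from 0.01 to 0.15 on the log2 scale, it was -0.14 and lost its call (edgeR adjusted p = 0.0526). Relative to the median regulator it was -0.29 under both scales, and Cluster-6671.7223 was 0.51 under both.

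Whether the AMS clusters are separate genes, or parts or alleles of 1 gene, was not tested. Their best nucleotide matches were different entries, an AMS-like gene of Prunus mume for Cluster-6671.14745 and a hypothetical protein gene of Prunus persica for Cluster-6671.7223. The longer cluster has 3589 bases, of which 41.9% lie in the authors' 2 predicted coding stretches, and these are in different reading frames. The shorter has 1554 bases, with 85.9% in 1 coding stretch that begins at base 3. Estimated counts were whole numbers in all 6 libraries for Cluster-6671.7223 and not whole in 4 of 6 for Cluster-6671.14745, by at most 0.21 of a read from the nearest whole number.

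Summed over the pair, AMS stood at 60.0, 60.3 and 63.4 FPKM in sterile libraries, against 53.5, 51.6 and 52.3 FPKM in fertile libraries. The sums did not overlap, and their means were 61.3 ± 1.87 and 52.5 ± 0.967 FPKM (SD, n = 3 each), a ratio of 1.17. The two-sided exact permutation p was 0.1, the smallest that 3 libraries against 3 allow (0.2 adjusted over the 2 sums tested). From counts per kilobase scaled by TMM, the normalisation of the edgeR fit, the ratio of the sums was 1.04 and the separation was lost (exact permutation p = 0.3). Cluster-6671.7223 gave 50.7%, 50.6% and 52.5% of the AMS FPKM in sterile libraries, against 40.5%, 36.6% and 35.3% in fertile libraries. This share needs no scaling between libraries, and it was higher in every sterile library than in any fertile one (exact permutation p = 0.1).

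**Figure D2:**
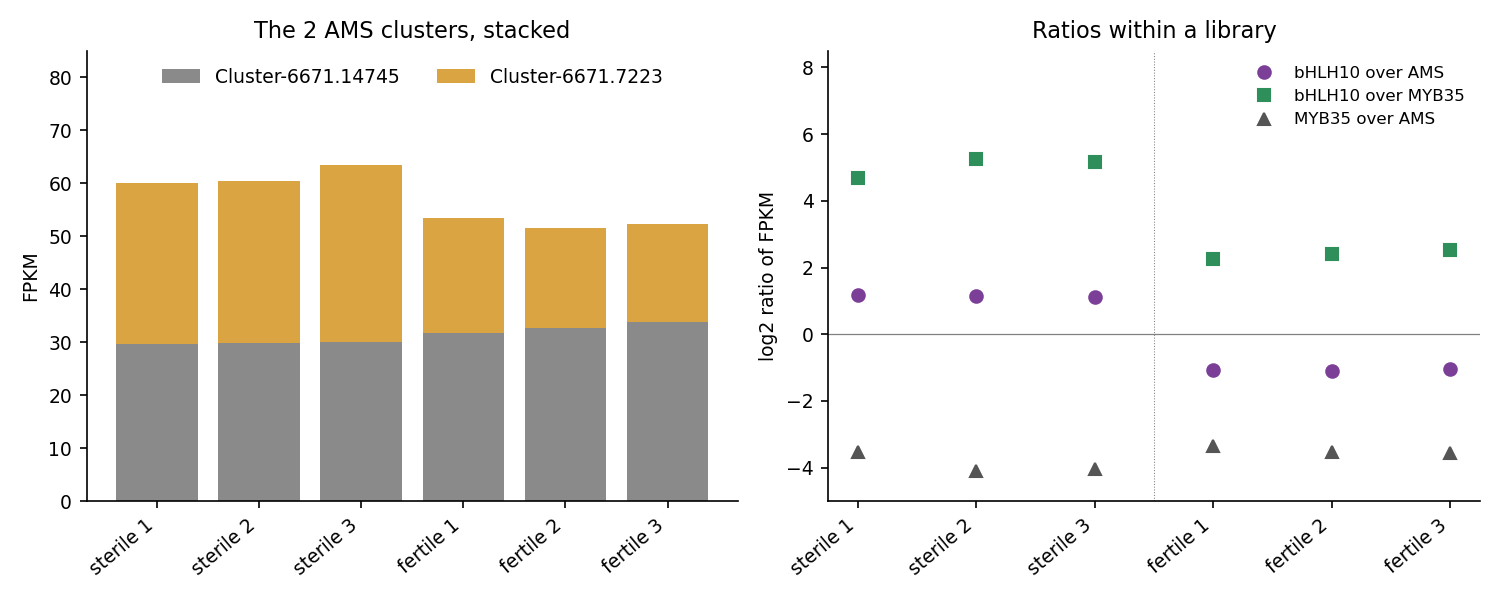
Left, FPKM of both AMS clusters stacked for each library, where the sums are 60.0 to 63.4 in sterile and 51.6 to 53.5 in fertile libraries. Right, log2 ratios of FPKM between members within each library, with AMS and MYB35 summed over their clusters: bHLH10 lies above AMS in all 3 sterile libraries and below it in all 3 fertile ones.

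The balance between bHLH10 and the summed AMS turned round between the clones. Taken singly, it turned round against AMS Cluster-6671.14745 only. Against AMS Cluster-6671.7223 bHLH10 was higher in all 3 libraries of both clones, with means of 24.9 and 19.7 FPKM in fertile buds. The sum treats the AMS clusters as separate, which was not tested. Within a library, bHLH10 FPKM was 2.25, 2.20 and 2.18 times the summed AMS in sterile buds, against 0.473, 0.463 and 0.486 times in fertile buds. On the log2 scale the ratio averaged 1.14 ± 0.02 in sterile and -1.08 ± 0.04 in fertile libraries (SD, n = 3 each), a difference of 2.22 or 4.66-fold that no scaling of libraries can move. bHLH10 over summed MYB35 differed by 2.63 on that scale, at 5.03 ± 0.29 in sterile and 2.40 ± 0.14 in fertile buds, and both differences had an exact permutation p of 0.1 (0.15 adjusted over 3 ratios), the smallest possible. MYB35 over AMS was -3.89 ± 0.31 in sterile and -3.48 ± 0.12 in fertile buds, and these ranges overlapped (exact permutation p = 0.2). From counts per kilobase that difference was -0.47, against -0.41 from FPKM, with an exact permutation p of 0.1. The 7 clusters together came to 202, 200 and 208 FPKM in sterile libraries, against 84.9, 80.6 and 82.2 FPKM in fertile ones. bHLH10 alone made up 66.4% to 66.7% of that sum in sterile and 29.6% to 31.0% in fertile buds.

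MYB35, an early tapetum factor that acts between DYT1 and AMS in Arabidopsis, named 2 clusters whose best nucleotide matches are different genes of Prunus mume. The more abundant, Cluster-6671.4670 (2751 bases), stood at 3.79, 2.79 and 2.64 FPKM in sterile replicates 1 to 3, against 4.76, 4.27 and 4.24 FPKM in fertile replicates 1 to 3. Every sterile library was below every fertile one, and sterile replicate 1 was the nearest to them. The log2 fold change was -0.68 ± 0.13 (edgeR adjusted p = 0.00032). It was among 39.3% of the 61 tested MYB family clusters that were called lower, where 21.3% were called higher, and ranked 13 from the bottom by log2 fold change. Its sterile libraries varied by 20.3% where counting alone gives 8.70%. In this cluster, as in the longer AMS cluster, the 2 predicted coding stretches lie in different frames, and they cover 44.8% of its length.

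The second MYB35 cluster, Cluster-2997.0 (826 bases), lay below the low-count filter and went the other way. It had 12, 7 and 13 counts in sterile libraries, against 7, 3 and 2 in fertile libraries, which is 1.39, 0.72 and 1.25 FPKM in sterile and 0.52, 0.21 and 0.16 FPKM in fertile libraries. The ratio of summed counts, scaled by library, was 3.28 (95% exact binomial interval 1.64 to 6.99, counting error only). With no filter its log2 fold change was 1.65 (edgeR adjusted p = 0.0231), and over the other fits that tested it the adjusted p ran from 0.00144 to 0.0583, past 0.05 without fertile replicate 2 or fertile replicate 3. Where a library was left out, this cluster passed the filter only through its sterile counts. The adjusted p-values of those fits therefore add nothing to the counts themselves. Summed over both MYB35 clusters the level was 4.19 ± 0.875 FPKM in sterile and 4.72 ± 0.487 FPKM in fertile buds (SD, n = 3 each), and the sums overlapped (exact permutation p = 0.4).

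MYB80, which in Arabidopsis acts downstream of AMS on the timing of tapetum breakdown, was named by Cluster-10581.1, a short cluster of 617 bases whose best nucleotide match is a MYB4 repressor gene of Prunus mume and whose best protein match is MYB80 of Prunus persica. It had 6, 7 and 7 counts in sterile libraries, against 7, 6 and 0 in fertile libraries, which is 1.13, 1.15 and 1.08 FPKM in sterile and 0.83, 0.67 and 0.00 FPKM in fertile libraries. The FPKM ranges did not overlap, but the ratio of summed counts, scaled by library, was 1.89 with a 95% exact binomial interval of 0.895 to 4.14, so no difference was detectable at this depth. In fertile replicate 3, 3 counts of this cluster would correspond to 0.393 FPKM.

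In sterile buds the order of levels by FPKM was bHLH10, AMS Cluster-6671.7223, AMS Cluster-6671.14745, MYB35 Cluster-6671.4670, and then MS1, MYB35 Cluster-2997.0 and MYB80, whose ranges overlapped from neighbour to neighbour. In fertile buds it was AMS Cluster-6671.14745, bHLH10, AMS Cluster-6671.7223, MYB35 Cluster-6671.4670, then MYB80 and MYB35 Cluster-2997.0, whose ranges overlapped, and MS1 last. The other neighbours in each order held the same order in all 3 libraries of the clone. MS1 thus stood level with the scarcer MYB35 and MYB80 clusters in the sterile clone and below all members in the fertile one. These are tissue totals, in which fewer tapetum cells and less RNA per cell cannot be told apart.

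**Figure D3:**
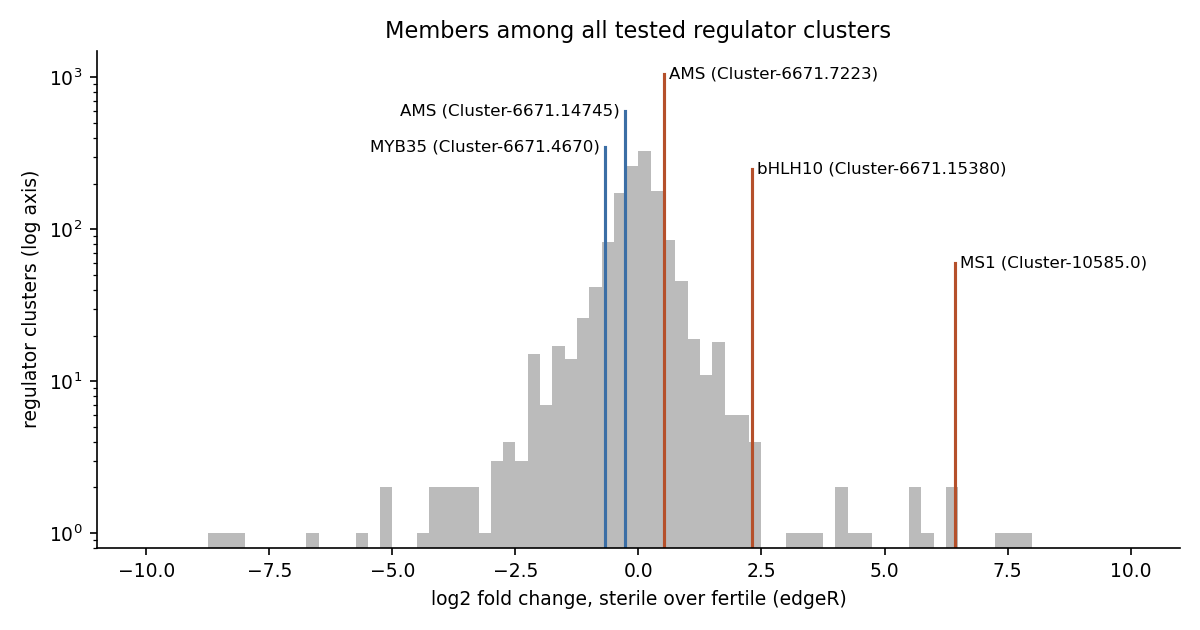
Histogram of log2 fold changes, sterile over fertile, of the 1380 tested regulator clusters, on a log axis of cluster number, with the 5 tested members marked. MS1 (6.44) and bHLH10 (2.30) lie in the upper tail, and the AMS and MYB35 clusters lie within the bulk between -0.68 and 0.52.

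Among all 1380 tested regulators bHLH10 ranked 18 from the top by log2 fold change, while the AMS and MYB35 clusters ranked 195, 996 and 1213. The authors' deposited table gave log2 fold changes of 6.77 for MS1, 2.37 for bHLH10, 0.59 and -0.21 for AMS Cluster-6671.7223 and Cluster-6671.14745, and -0.61 for MYB35 Cluster-6671.4670. That table marks MS1 and bHLH10 as up and none of the other 5 clusters as changed. Its q-values were 0.0893 for MYB35 Cluster-2997.0 and 0.519 for MYB80.

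**Figure D4:**
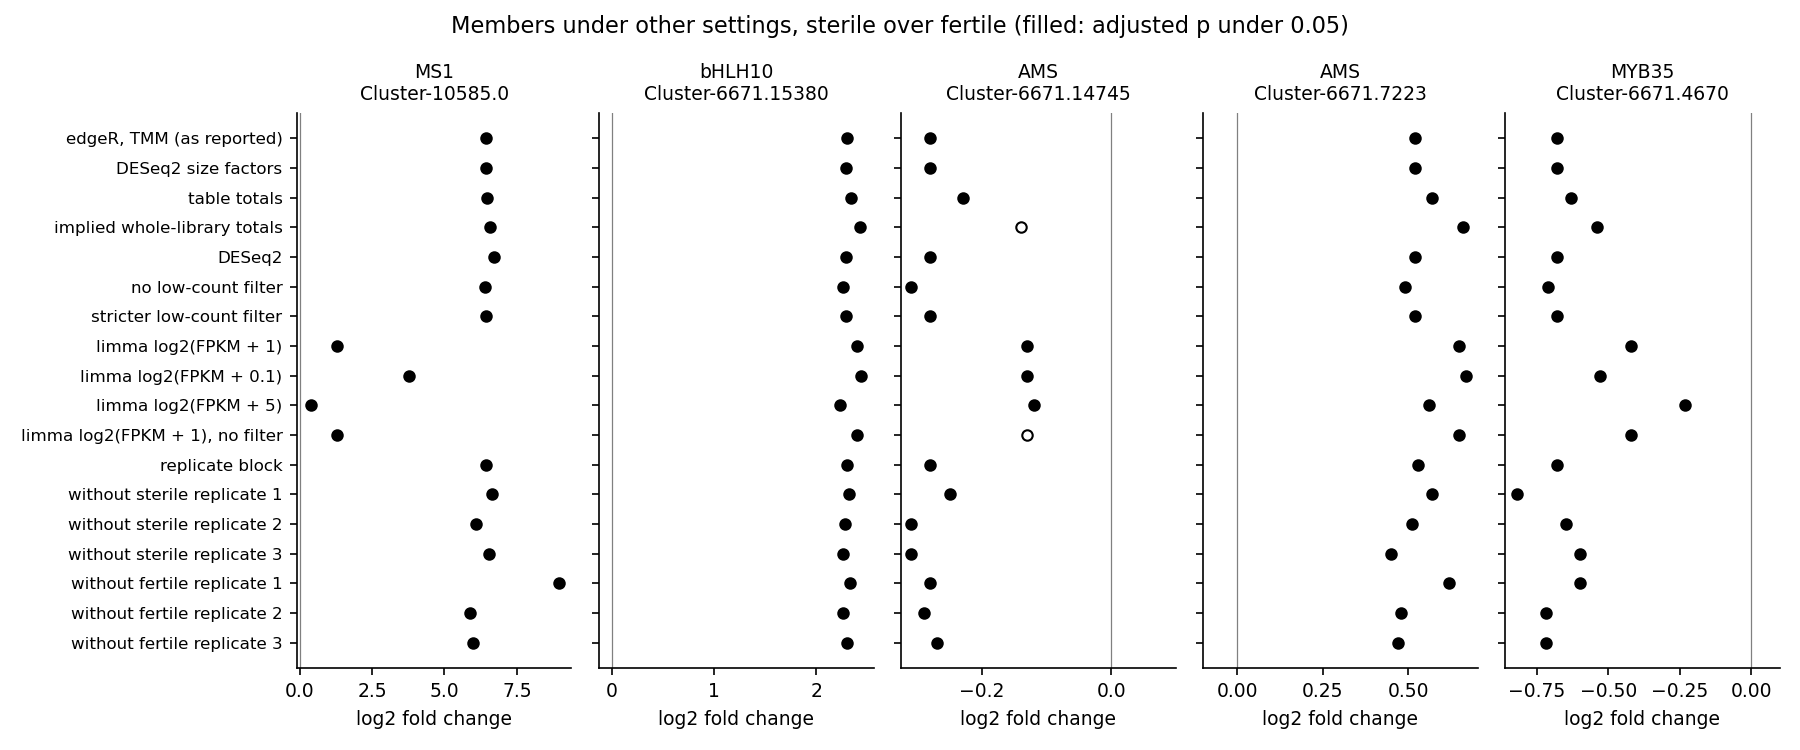
Log2 fold changes of the 5 tested members, sterile over fertile, under the reported fit and 17 other settings, each panel with its own scale and a line at 0. No point crosses 0, open points mark an adjusted p of 0.05 or more, and the MS1 value follows the pseudocount, from 0.37 with 5 to 3.79 with 0.1 added to FPKM.

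The regulators whose profile over the 6 libraries lay nearest to each member, by Euclidean distance between centred log2 CPM (counts scaled by library), came from other families. Nearest to bHLH10 was the hypoxia-related factor ERF071, at 214 ± 7.77 FPKM in sterile and 41.9 ± 3.05 FPKM in fertile buds (distance 0.182), followed by At1g11510 (0.318) and a B3-domain cluster (0.387). Nearest to MS1 were the leaf polarity factor AS2 (1.44), the NF-Y subunit NFYB10 (1.97) and FRS5 (2.06). These distances exceed those of the other members (0.0604 to 0.387), so the profiles are not close. They depend on the offset of 0.5, since MS1 had 0 counts in fertile replicates 2 and 3. FRS5 stood at 0 FPKM in fertile buds. AMS Cluster-6671.7223 lay nearest to BZIP11, LBD37 and CPRF2 (0.144 to 0.148). AMS Cluster-6671.14745 lay nearest to the DELLA repressor GAIPB, to MYB73 and to the histone acetyltransferase HAC1 (0.0604 to 0.075). MYB35 Cluster-6671.4670 lay nearest to ZAT9, GATA5 and SWI3B (0.282 to 0.313). The difference between the clones enters each of these distances, since the 6 libraries come from 2 clones.

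In a list of other regulators of tapetum and early anther development, taken by name, bHLH90 was higher and MYB33 lower in sterile buds. bHLH90 is not among the bHLH10 relatives named above, and a tapetum role for it was not tested. Of the 5 clusters in this list, all tested, 1 was higher, 1 lower and 3 not called, where 57.0% of all regulators were called. Their median log2 fold change was -0.09, against 0.01 over all regulators. The GAMYB-type factor MYB33 stood at 21.18 to 22.48 FPKM in sterile and 21.20 to 24.03 FPKM in fertile libraries (-0.18 ± 0.06, edgeR adjusted p = 0.0278), a call that was lost in 10 of 17 alternatives, with adjusted p from 0.000103 to 0.762 over all 17. Among these were the implied whole-library totals (-0.04), DESeq2 (-0.18), and the fits without sterile replicate 1 (-0.17), without sterile replicate 3 (-0.17) or without fertile replicate 2 (-0.14). bHLH90 was the higher one (0.56 ± 0.12, edgeR adjusted p = 0.000526). The anther bZIP factors TGA9 and TGA10 and the meiosis regulator MALE MEIOCYTE DEATH 1 (MMD1), a PHD-finger relative of MS1, were not called, at -0.09 ± 0.07, -0.17 ± 0.08 and 0.12 ± 0.21. MMD1 stood at 1.04 ± 0.0611 FPKM in sterile and 0.873 ± 0.189 FPKM in fertile buds. The cluster named TGA9 had TGA2 of Prunus mume as its best nucleotide match. A cluster that the authors' table places in the NOZZLE family, that of SPOROCYTELESS, which starts sporogenous tissue in Arabidopsis, has no Swiss-Prot name and is outside these 5. This cluster, Cluster-6671.1423, was not called, at 0.26 ± 0.14 on the log2 scale (edgeR adjusted p = 0.112). DYT1, MYB65, bHLH89 and bHLH91 were not analysed here.

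**Figure D5:**
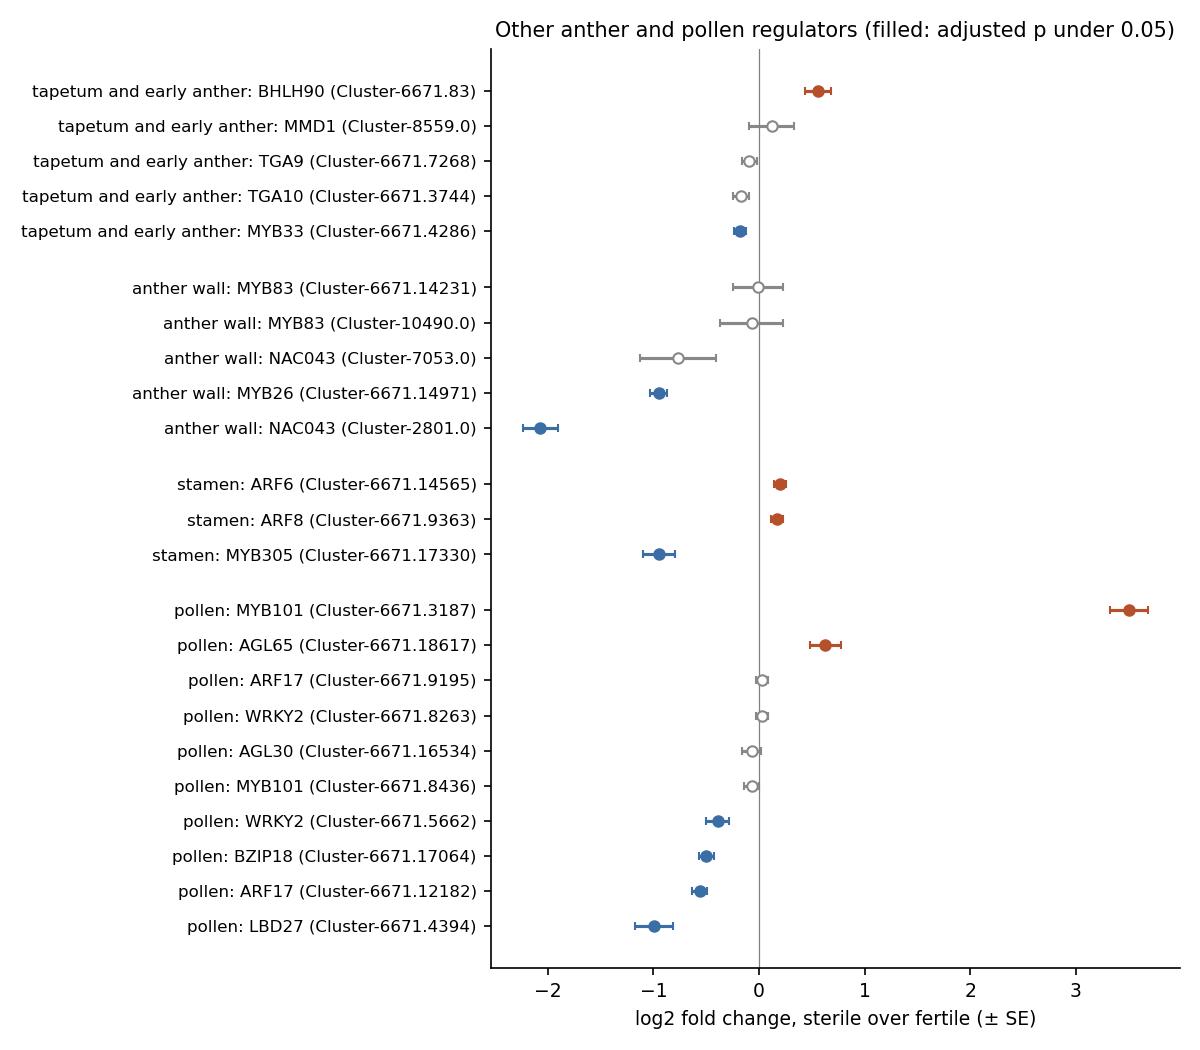
Log2 fold changes with SE, sterile over fertile, of the other anther and pollen regulators, grouped by the list that took them in by name, filled where the edgeR adjusted p was under 0.05. NAC043 (-2.07) and MYB26 (-0.95) lie lowest among the anther wall factors, and a MYB101 cluster lies highest, at 3.51.

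Clusters of the anther wall list were lower or not called. The list was taken by name and includes MYB26 and NAC043, which act in the thickening of the endothecium, an outer wall layer of the anther. Of 5 tested clusters 2 were lower, 0 higher and 3 not called (median -0.77), where 28.9% of all regulators were lower and 28.0% higher, and their summed level was 16.7 to 18.2 FPKM in sterile and 31.0 to 32.8 FPKM in fertile libraries. The wall-thickening regulator NAC043 (Cluster-2801.0) stood at 1.74 ± 0.359 FPKM in sterile and 6.56 ± 0.68 FPKM in fertile buds (-2.07 ± 0.17, edgeR adjusted p = 1.27e-08), and MYB26, which acts upstream of it in Arabidopsis, was lower by 0.95 on the log2 scale. The clusters not called were a second NAC043 cluster, Cluster-7053.0 (-0.77 ± 0.36, edgeR adjusted p = 0.0769), and both named MYB83. The best nucleotide matches in Prunus mume were MYB46 for Cluster-10490.0 and a MYB82-like gene for Cluster-6671.14231. Among 3 stamen factors ARF6 and ARF8 were higher (0.20 ± 0.06 and 0.17 ± 0.06) and MYB305 lower (-0.95 ± 0.15), where 57.0% of all regulators were called. The MYB305 cluster had an uncharacterized non-coding RNA of Prunus mume as its best nucleotide match. Without sterile replicate 2 or 3, only the MYB305 call was kept. Of 10 pollen clusters 2 were higher, 4 lower and 4 not called (median -0.07), against 57.0% called over all regulators. Under the implied library sizes, as with limma on FPKM, the split was 3 higher and 3 lower. ARF17 Cluster-6671.12182, which in Arabidopsis controls callose and the pollen wall pattern, was lower at 11.37, 12.65 and 12.13 FPKM in sterile libraries, against 16.26, 16.32 and 15.64 FPKM in fertile libraries (-0.56 ± 0.07), and BZIP18 was lower too (-0.50 ± 0.07). The ARF17 Cluster-6671.9195, a WRKY2 cluster and a MYB101 cluster, at -0.07 to 0.03, were not called, and the best nucleotide matches of this ARF17 and this MYB101 cluster were an ARF6-like and a MYB108-like gene of Prunus mume.

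Markers of other bud tissues are given beside these values, with 57.0% of all regulators called for comparison. The 12 pistil and ovule clusters summed to 197 to 200 FPKM in sterile and 133 to 140 FPKM in fertile libraries. Much of that gap came from 1 cluster, named DROOPING LEAF, a carpel factor in rice, which stood at 69.13, 69.93 and 70.53 FPKM in sterile libraries, against 36.15, 33.29 and 32.59 FPKM in fertile libraries. Of 11 tested pistil and ovule clusters 6 were higher and 2 lower, and scaling by the implied library sizes gave 8 higher and 0 lower. Without sterile replicate 2, 4 were higher and 1 lower. The list took in BEL1-like clusters by name (BLH1, BLH2, BLH3, BLH7, BLH8 and BLH9), and none of its clusters is named BEL1 itself. Of these, BLH1, BLH7 and BLH9 were among the higher clusters and BLH2 among the lower. The counts are therefore not a measure of pistil and ovule tissue alone.

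The 4 clusters of the green tissue list summed to 51.4 to 53.1 FPKM in sterile and 39.8 to 43.8 FPKM in fertile libraries, with 1 of 4 higher, against 28.0% of all regulators. That 1 cluster, Cluster-6671.14485, is named for a chlorophyll-binding protein by Swiss-Prot, but the authors' table places it in the HMG family and its best nucleotide match is a high mobility group protein gene, so it goes against its place as a green marker. It stood at 27.2 ± 0.525 FPKM in sterile and 20.9 ± 2.0 FPKM in fertile buds (SD, n = 3 each). Its call was lost, leaving 0 of 4, without sterile replicate 2 or 3 or without fertile replicate 2 or 3, and the implied whole-library totals gave 3 of 4 higher. The 17 vascular and meristem clusters summed to 178 to 190 FPKM in sterile and 172 to 177 FPKM in fertile libraries, with 3 of 16 tested higher and 3 lower, a smaller share than over all regulators. None of the markers in these lists was at 0 in all libraries. Their part in the differences of the tapetum regulators was not tested.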

How the data were processed

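RNA-seq of 6 bud samples was used, grouped by the sample labels. Per the submitters' processing notes, RSEM, Bowtie2 and CASAVA were used. Which assembler, build and versions were used is not given in the sources used here, nor is the role of each tool. The authors deposited estimated counts per cluster, FPKM, log2 fold changes and q-values for 1625 entries of 1508 regulator clusters, per the file headers, and FPKM of 34377 clusters without names. The 114 clusters listed more than once had identical values and were used once. After rounding, estimated counts went into edgeR 4.0.16 under R 4.3.3. The filterByExpr step left out 128 clusters, which held 0.0424% of all counts. TMM factors were computed inside the regulator table, so each change is relative to the other regulators. P-values from the robust quasi-likelihood F test were adjusted by Benjamini-Hochberg over 1380 clusters, with 0.05 as the threshold. Fold changes divide sterile by fertile, and each SE is the log2 fold change divided by the square root of F. Sums and ratios were tested by exact permutation (scipy 1.17.1).

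Alternatives were other library scales, DESeq2 1.42.0, other filters, limma 3.58.1 (trend, robust) on log2(FPKM + pseudocount) over the whole FPKM table, a replicate block and fits without each library in turn. In a simulation of the 1380 clusters with 200 changed, edgeR recovered 81.7%, 98.2% and 100% of log2 changes of 0.5, 1 and 2, and 1.6% of its calls were false. The simulated libraries had no outlier like fertile replicate 1. A smaller share of clusters was changed than the 57.0% called in the data, so these rates may not hold there. Depth gives 3 counts a value of 0.055 to 0.0871 FPKM for a cluster of MS1's length. Named were all members, up to 5 clusters of each anther list by mean FPKM, and the 3 nearest profiles of each tested member (log2 CPM + 0.5 offset, 6 libraries). The members and the 8 lists were chosen with earlier results of these data known. List patterns matched Swiss-Prot descriptions, and 3 that also took in unrelated names were narrowed after the files were read. Nucleotide sequences of the clusters were not used here.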

Additional observations from a re-analysis of the deposited data

How the results depend on the processing

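Over 17 alternatives the 5 tested members kept their direction in all 85 values. Of these values 17 belong to MS1, whose call was bound to follow from its sterile counts, so they add nothing to those counts. The call was lost in 2 values, both of AMS Cluster-6671.14745: -0.14 with the implied whole-library totals (edgeR adjusted p = 0.0526) and -0.13 with limma on unfiltered log2(FPKM + 1) (adjusted p = 0.057). Log2 fold changes ran from 2.23 to 2.44 for bHLH10, 0.45 to 0.67 for AMS Cluster-6671.7223, -0.31 to -0.12 for AMS Cluster-6671.14745 and -0.82 to -0.23 for MYB35 Cluster-6671.4670. MS1 ran from 0.37 with a pseudocount of 5, whose construction shrinks low values, to 8.96 without fertile replicate 1, a fitted value with no fertile reads behind it. MYB35 Cluster-2997.0 gave 0.71 on unfiltered log2(FPKM + 1), against 1.71 from summed counts, and 1.40 to 2.34 with a library left out. MYB80 gave 0.38 to 1.46 with a library left out. The ratio of MS1 to bHLH10 could not be formed where MS1 had 0 counts.

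Of all regulators 786 were called, 387 higher and 399 lower, and scaling by the implied whole-library totals gave 567 higher and 297 lower. Fewer were lower with limma, at 249, 248, 249 and 249 with pseudocounts of 1, 0.1 and 5 and with no filter, and the cause was not tested. Calls in the list of other tapetum regulators fell from 2 to 1 with table totals, the implied totals, DESeq2 and the 4 limma settings, and ran from 1 to 2 with a library left out. They rose to 3 with no low-count filter, where TGA10 was called lower (-0.20, edgeR adjusted p = 0.0448). Stamen calls ran from 1 to 3 with a library left out. With no low-count filter they fell to 2, as ARF8 lost its call (edgeR adjusted p = 0.0579). The labels give no pairing of same-numbered samples of the clones. Their deviations correlated at 0.016, 0.027 and 0.009, and not every sample correlated best with its own number. Whether same-numbered samples share a batch was not tested. With the replicate block 781 regulators were called, and no call of the 5 tested members changed. Depth limits MYB80 and MYB35 Cluster-2997.0, with 33 and 44 counts over 6 libraries.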

Other observations

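Outside the naming rule, and picked after its value was seen, Cluster-6671.3187 had the largest difference in the pollen list. Swiss-Prot names it MYB101, a pollen tube factor in Arabidopsis, and its best nucleotide match is a MYB51-like gene of Prunus mume. It stood at 5.26 ± 0.643 FPKM in sterile and 0.413 ± 0.085 FPKM in fertile buds (SD, n = 3 each), or 3.51 ± 0.18 as a log2 fold change (edgeR adjusted p = 2.91e-11). The pollen MADS factor AGL65, at 0.63 ± 0.15, was the other higher cluster of that list. LBD27, named SIDECAR POLLEN in Arabidopsis for its part in microspore division, was lower at 2.14 ± 0.517 against 3.82 ± 0.724 FPKM (-0.99 ± 0.18, edgeR adjusted p = 0.000171), and a WRKY2 cluster was lower at -0.39 ± 0.11.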
